A study of Homo sapiens with 12 samples.

Results

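miR-122 is a liver-specific miRNA, and the 2 strands (arms) of its hairpin, hsa-miR-122-5p and hsa-miR-122-3p, were 2 of the 2652 mature miRNAs counted in Huh7 cells, a line from a hepatocellular carcinoma that makes this miRNA. Both were chosen by name and not by a threshold on a measured value. Both had more than 100 CPM (counts scaled to the sum of all miRNA reads of a library) in each of the 12 libraries, as had 158 miRNAs in all, and both were among the 143 of these that are also in the curated database MirGeneDB (the Initial miRNA Dataset), on which the tests below were fitted. The measurement was SLAMseq, in which 4-thiouridine (4SU) is taken up into RNA made during a labelling period, alkylated and then read as C in place of T, so that the T>C conversion rate, the percentage of covered T positions read as C, follows newly made RNA. Control cells had DMSO for 4 h and no 4SU, DMSO cells had DMSO for 4 h with 500 µM 4SU, and PlaB cells had pladienolide B (PlaB), an inhibitor of the splicing factor SF3B1, for 4 h with 500 µM 4SU. Each of the 3 conditions had 4 libraries, 1 from each of 4 independent experiments of the same cell line, and libraries are named here by the number of the experiment. The labels give a PlaB concentration of 500 µM, which is also the 4SU concentration of these cells. The methods of the study give 1 µM, and it states that experiments after its dose and time series used 1 µM for 4 h. Why the labels differ is not stated. DMSO libraries 1 and 2 gave few reads at first, so new libraries were prepared and the existing ones re-amplified. Their reads were combined from 3 sequencing runs (original, newly prepared and re-amplified), so preparation differed within the DMSO group.

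A miRNA is cut out of a long primary transcript in the nucleus by the Microprocessor complex, which contains the nuclease Drosha, and the resulting hairpin is cut by Dicer in the cytoplasm to a duplex of a 5p and a 3p strand. One strand, the guide, is usually kept by an Argonaute protein and the other, the passenger, is usually lost quickly. In hepatocytes the 5p strand of miR-122 is the guide; it represses genes of lipid metabolism and is a host factor that hepatitis C virus needs.

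The hairpin is annotated at chr18:58451074-58451158 on the plus strand of GRCh38, within the long non-coding RNA gene MIR122HG (chr18:58445788-58453766). In GENCODE version 44 it lies in an exon of 3 of the 8 MIR122HG transcripts and in an intron of none, and the other 5 transcripts end before it. The hairpin is shown first because both measured molecules come from it, with the 5p strand (bases 15 to 36) and the 3p strand (bases 51 to 72) in capitals. The mature strands follow with their seeds, bases 2 to 8, in capitals.
MIR122 hairpin: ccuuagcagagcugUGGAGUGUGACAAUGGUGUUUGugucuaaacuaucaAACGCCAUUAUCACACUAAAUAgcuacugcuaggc
hsa-miR-122-5p: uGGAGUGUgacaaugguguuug
hsa-miR-122-3p: aACGCCAUuaucacacuaaaua
The strands lie at chr18:58451088-58451109 and chr18:58451124-58451145. Neither seed is shared with another human mature miRNA in RefSeq, from which all sequences here were taken.

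Conversions can be seen only at U, written T in the reads. In the next lines every U is in capitals. miR-21-5p, which is not liver-specific, and miR-17-5p of the miR-17~92 cluster are shown because the conversion rate of miR-122-5p was compared with theirs.
hsa-miR-122-5p: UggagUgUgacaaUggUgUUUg
hsa-miR-122-3p: aacgccaUUaUcacacUaaaUa
hsa-miR-21-5p: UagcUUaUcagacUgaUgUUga
hsa-miR-17-5p: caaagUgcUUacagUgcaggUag
miR-122-5p and miR-21-5p have 8 U each, and miR-122-3p and miR-17-5p have 5 each. Reads of miR-122-5p covered a mean of 7.97 T in each condition, and reads of miR-122-3p between 4.84 and 4.86 T, so nearly all positions were read.

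Libraries held between 1522210 and 3880241 miRNA reads. Of the 8 liver-enriched strands listed besides miR-122, 4 were high in DMSO, from miR-885-5p at 3469 CPM ± 638 to miR-194-5p at 26544 CPM ± 4372 (SD, n = 4). The other 4 were low, at 11.3 CPM for miR-192-3p, 58.1 CPM for miR-194-3p, 105 CPM for miR-215-5p and 162 CPM for miR-148a-5p. The 17 miRNAs listed as markers of blood, muscle, neural, endothelial, mesenchymal and pluripotent cells summed to between 534 and 813 CPM in a library. The blood markers summed to between 0 and 6.90 CPM, miR-206 of muscle and both markers of pluripotent cells had no read, and miR-126-3p of endothelium, at 385 to 632 CPM, made up most of the sum.

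miR-122-5p was the third most abundant miRNA in every library, below miR-21-5p and miR-92a-3p and above miR-16-5p in the mean of each condition. Its level in Control was 83290, 55353, 69948 and 88380 CPM in experiments 1 to 4. In DMSO it was 105331, 66716, 72730 and 91576 CPM, and in PlaB 90874, 59152, 87000 and 81789 CPM. Experiment 2 was the lowest of the 4 in all 3 conditions, and the ranges of the conditions overlapped. The Control mean was 74243 CPM ± 14798, the DMSO mean 84088 CPM ± 17684 and the PlaB mean 79704 CPM ± 14198 (SD, n = 4 each).

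miR-122-3p had between 3266 and 6066 CPM and ranked between 27 and 38 by reads. In Control it had 3373, 3999, 4425 and 4275 CPM in experiments 1 to 4. In DMSO it had 5561, 5777, 5663 and 4305 CPM, and in PlaB 3266, 4195, 6066 and 3754 CPM. DMSO library 4 was well below the other 3 DMSO libraries and within the Control range, while PlaB library 3 was above every other library. The means were 4018 CPM ± 465, 5326 CPM ± 687 and 4320 CPM ± 1224 (SD, n = 4).

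None of the 6 read comparisons of the strands passed in edgeR's quasi-likelihood test across the 143 miRNAs with Benjamini-Hochberg adjustment. The calls over the dataset were also few, at 4.2% of the 143 for DMSO against Control, 0.699% for PlaB against DMSO and 3.5% for PlaB against Control. For miR-122-5p the log2 fold change was 0.19 (SE 0.174, adjusted p = 0.639, edgeR) for DMSO against Control, -0.09 (SE 0.174, adjusted p = 0.998) for PlaB against DMSO and 0.10 (SE 0.174, adjusted p = 0.967) for PlaB against Control. The small difference between PlaB and DMSO had the opposite sign without DMSO library 1 (0.071) or without PlaB library 2 (0.027). For miR-122-3p the log2 fold changes were 0.42 (SE 0.174, adjusted p = 0.255, edgeR), -0.31 (SE 0.174, adjusted p = 0.921) and 0.11 (SE 0.173, adjusted p = 0.967) in the same order, the last with the sign reversed without PlaB library 3 (-0.069). As whole cultures were sequenced, fewer cells with the miRNA and less of it per cell cannot be told apart.

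The levels of same-numbered libraries deviated together, and with the experiment as a block miR-122-3p passed for DMSO against Control (log2 fold change 0.42, adjusted p = 0.0279, edgeR). It was higher in DMSO in 4 of 4 experiments, though in experiment 4 only at 4305 against 4275 CPM. The block also raised the calls for that comparison from 6 to 24 of the 143, and for PlaB against Control from 5 to 8. 4SU and its absence separate these conditions, and both had DMSO. DMSO libraries 1 and 2 also differed in preparation, which for them cannot be told apart from 4SU.

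The read ratio of the strands, 5p over 3p, followed the experiment. It was 24.7, 13.8, 15.8 and 20.7 in Control experiments 1 to 4, 18.9, 11.5, 12.8 and 21.3 in DMSO, and 27.8, 14.1, 14.3 and 21.8 in PlaB. Experiments 1 and 4 were above experiments 2 and 3 in every condition. On the log2 scale DMSO was lower than Control by 0.226 (lower in 3 of 4 experiments; exact two-sided permutation p = 0.457, adjusted 0.533 over the 7 exact tests made here), and PlaB was higher than DMSO by 0.259 (higher in 4 of 4; exact permutation p = 0.457, adjusted 0.533). Taken within experiments, the first difference had an SD of 0.185 (exact sign-flip p = 0.25) and the second, which ran from 0.034 to 0.555, an SD of 0.223 (exact sign-flip p = 0.125, the smallest that 4 pairs allow). Neither passed either exact test, and 4 pairs cannot go below 0.125. Across the 12 libraries the log2 CPM of the strands had a Pearson correlation of 0.0286, which placed 3p at 83 among the other miRNAs ordered by likeness to 5p. The miRNAs most like 5p in reads were miR-423-5p (0.933), miR-217-5p (0.908) and miR-652-3p (0.906), and those most like 3p were miR-374b-5p (0.894), miR-19b-3p (0.872) and miR-26b-5p (0.849). The libraries share their depth and their total, so these are descriptions over 12 points.

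The T>C conversion rate of miR-122-5p separated the 3 conditions without overlap. In Control, where there was no 4SU, it was 0.0413%, 0.0442%, 0.0476% and 0.0340% in experiments 1 to 4. In DMSO it was 0.286%, 0.325%, 0.370% and 0.311%, and in PlaB 0.0766%, 0.0852%, 0.0787% and 0.0788%. Every DMSO library was above every PlaB library, and every PlaB library above every Control library. The depth behind these values was large, with 1977 conversions over 4857828 covered T in Control, 23807 over 7611940 in DMSO and 3492 over 4388266 in PlaB, so that the 95% Wilson interval of a single DMSO library was no wider than 0.359% to 0.381%. Intervals and floors given here cover counting error only. The study trimmed off the random bases of its adapters and describes no removal of PCR copies, so copies of 1 molecule may count as separate reads.

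The mean rate of miR-122-5p was 7.74 times higher in DMSO than in Control (log2 fold change 2.95, SE 0.163, adjusted p = 5.12e-22, edgeR), and 82.5% of the 143 miRNAs were called higher in that comparison. It fell 4.05-fold from DMSO to PlaB (log2 fold change -2.02, SE 0.157, adjusted p = 3.16e-15, edgeR), where 48.3% of the miRNAs were called lower. It stayed 1.91 times higher in PlaB than in Control (log2 fold change 0.94, SE 0.154, adjusted p = 8.33e-07, edgeR), where 53.8% were called higher. The median log2 fold change of the 143 miRNAs was 3.16, -1.23 and 1.89 in the 3 comparisons. Each of the 3 calls for miR-122-5p held under all 20 alternatives tried.

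miR-122-3p had no conversion in any Control library, over 161798 covered T, which with a floor of 3 conversions allows a rate of up to 0.00185%. In DMSO it had 41, 17, 24 and 10 conversions in experiments 1 to 4, which are rates of 0.0391%, 0.0184%, 0.0429% and 0.0243%. In PlaB it had 2, 5, 2 and 0 conversions, at rates of 0.00827%, 0.0124%, 0.00424% and 0. All 4 DMSO libraries were above all PlaB and Control libraries, and PlaB library 4 was at 0 like Control, where the count allows up to 0.00861%.

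For miR-122-3p the DMSO rate was above Control (adjusted p = 1.96e-05, edgeR). With counts summed over libraries, it was 16.9 times the Control floor of 3 conversions over the 4 libraries. Counting error in the DMSO rate of miR-122-3p is not included, so this ratio is not a lower bound. From DMSO to PlaB its mean rate fell 5.01-fold (log2 fold change -2.29, SE 0.868, adjusted p = 0.0274, edgeR), with 92 and 9 conversions behind the means. This call rested on few conversions: it was lost without DMSO library 1 (adjusted p = 0.0822), DMSO library 3 (0.0916), PlaB library 3 (0.0583) or PlaB library 4 (0.0758), and without DMSO libraries 1 and 2 together (0.135). The PlaB rate was also above Control (adjusted p = 0.0137, edgeR), a call lost without PlaB library 2 (0.0528), which held 5 of the 9 conversions. With counts summed, the PlaB rate was 3.31 times the same floor. Its Wilson interval ran from 0.00323% to 0.0117% and that of Control up to 0.00237%, so a smaller fold is allowed.

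The strands differed in rate in every condition. In the means the 5p rate was 10.4 times the 3p rate in DMSO and 12.8 times in PlaB. In Control the 5p rate was 22.5 times the 3p floor of 3 conversions over the 4 libraries. With the Control rate subtracted, the DMSO ratio was 9.02. In PlaB the subtracted 5p rate was 0.0381% beside 0.00622% for 3p, a lower ratio than in DMSO. All are rates per covered T, so the number of U in each strand does not enter. Among reads with at least 1 conversion, 5p exceeded 3p by 229 to 1 in DMSO (21057 and 92 reads), whereas among all reads it exceeded 3p by 15.8 to 1. The count of converted reads does depend on the number of U, 8 in 5p and 5 in 3p. It also includes background, as 0.333% of 5p reads and no 3p read were converted in Control.

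Whether PlaB changed the strands unequally could not be resolved. With 0.5 conversions added to each strand, the rate ratio of 5p to 3p was 7.23, 17.1, 8.45 and 12.2 in DMSO experiments 1 to 4, and 7.41, 6.26, 14.9 and 54.9 in PlaB. The value of 54.9 comes from PlaB library 4, in which 3p had no conversion. The log2 difference, PlaB minus DMSO, was 0.39 with within-experiment differences from -1.45 to 2.17 (exact two-sided permutation p = 0.743, adjusted 0.743), and it turned negative without PlaB library 4 (-0.27) and with the Control rate subtracted (-0.48).

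Of the hairpins with both strands in the Initial miRNA Dataset there were 23, and the strand with fewer reads in DMSO was taken as the minor one. In 22 of them both rates could be set side by side, the major strand of miR-140 having no conversion. The rate of the minor strand was higher than that of the major strand in 13 hairpins and lower in 9, with a median ratio of 2.43. miR-122 had the lowest ratio of the 22, at 0.0965, next to miR-335 at 0.133, and the highest was 54.9 for miR-30e. Its read ratio of 15.8 ranked at 9 of 23, between miR-455 (21.7) and miR-15b (14.9), and ranged from 1.29 for miR-151a to 288 for miR-21. Strands of low level rest on few conversions, and rates of different sequences are not directly comparable as synthesis rates. The order is a description.

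Conversions beyond 1 per converted read gave a second readout that was almost absent without 4SU. This is a net difference, conversions minus reads with a conversion, and does not count reads with more than 1. In Control the number of conversions in miR-122-5p reads was 1 below the number of reads with a conversion (1977 and 1978), and in single Control libraries the difference was between -7 and 5. In DMSO there were 2750 conversions beyond 1 per converted read, and in PlaB 226. Conversions per converted read were 1.105, 1.122, 1.178 and 1.152 in DMSO experiments 1 to 4 and 1.074, 1.063, 1.083 and 1.058 in PlaB. All DMSO libraries were above all PlaB libraries. If every covered T of a library had the same chance of conversion, the value would have been 1.01 in each DMSO library and 1.00 in each PlaB library.

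These further conversions came to 0.318 ± 0.0958 per 100 reads of miR-122-5p in DMSO (SD, n = 4). The PlaB value was 0.0412 ± 0.00568 and that of Control 0.000312 ± 0.00291. They were thus 7.76-fold lower in PlaB after subtraction of Control. The same measure for miR-21-5p was 0.166 ± 0.0197 in DMSO and 0.156 ± 0.0338 in PlaB, 1.06-fold lower. For miR-122-3p the net difference was 0 over its 92 converted reads in DMSO, where a floor of 3 is 3.26 per 100 converted reads. miR-17-5p, with the same number of U, had 12.3 per 100 converted reads and miR-122-5p had 13.1.

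On the CPM scale, converted reads of miR-122-5p came to 244 CPM ± 36.3 in Control, 1876 CPM ± 267 in DMSO and, under PlaB, 471 CPM ± 63.5 (SD, n = 4). miR-122-5p supplied 13.5% ± 2.80 of all T>C conversions in a Control library, 12.0% ± 2.41 in DMSO and 5.04% ± 1.06 in PlaB. The highest PlaB library, at 5.74%, was below the lowest DMSO library, at 8.94%. For miR-122-3p the share was at most 0.0616%.

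Because miR-122-5p has a comparatively high rate without 4SU, the change under PlaB depends on whether this is subtracted. Its Control rate ranked at 24 of 143, between miR-20a-5p (0.0419%) and miR-660-5p (0.0413%), against a median of 0.0178% and a highest rate of 0.181% for miR-25-3p. miR-122-3p was one of the 21 miRNAs with no conversion in Control. With the mean Control rate subtracted from both, the PlaB rate of miR-122-5p was 0.135 of the DMSO rate, or 7.39-fold lower, compared with 0.247 without subtraction. Within experiments 1 to 4 it was 0.144, 0.146, 0.0965 and 0.162, a mean of 0.137 ± 0.0281 (SD, n = 4). miR-122-3p had a ratio of 0.200, with 0.211, 0.672, 0.0989 and 0 in the 4 experiments.

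In the same measure miR-21-5p was at 0.784 (0.735 to 0.860 in the 4 experiments), miR-17-5p at 0.262 (0.104 to 0.488) and the pooled rate of the other 141 miRNAs at 0.568 (0.531 to 0.594). The 4 values of miR-122-5p were below all 4 of miR-21-5p and of the pooled miRNAs, and overlapped those of miR-17-5p.

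**Figure D1:**
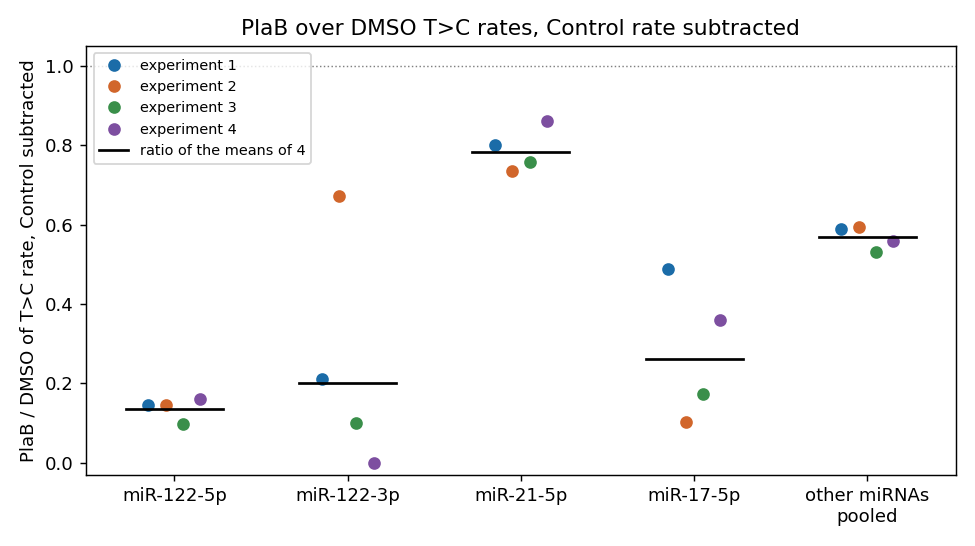
T>C rate in PlaB as a fraction of that in DMSO after subtraction of the Control rate (y axis), for both strands of miR-122, the comparators miR-21-5p and miR-17-5p, and the pooled rate of the other 141 miRNAs (x axis); points are the 4 experiments, lines the ratio of the means. miR-122-5p lies at 0.0965 to 0.162, miR-122-3p scatters from 0 to 0.672, and the pooled miRNAs lie at 0.531 to 0.594.

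Among the 112 miRNAs with a higher rate under DMSO than under Control in the edgeR test, and with a PlaB mean above the Control mean, this ratio had a median of 0.331. miR-122-5p ranked at 99 from the highest, between miR-652-3p (0.139) and miR-339-3p (0.129), and miR-122-3p at 87, between miR-26b-5p (0.200) and miR-339-5p (0.190). The highest ratio was 2.88 for miR-450a-5p and the lowest 0.0153 for miR-532-5p. The list is cut at its low end, because a PlaB mean at or below Control was excluded. miR-335-5p, at 0.419% in DMSO and 0 in PlaB, was left out in this way. Of the 10 miRNAs with the most reads in DMSO, 9 were among these 112, and of the 9 miR-122-5p had the lowest ratio, with miR-103a-3p at 0.158, a median of 0.339 and miR-7-5p the highest at 0.923.

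The rate of miR-122-5p relative to that of the other 141 miRNAs pooled removes what a library shares. It was 1.16, 1.17, 1.33 and 1.34 in DMSO experiments 1 to 4 and 0.493, 0.486, 0.486 and 0.565 in PlaB. All DMSO values were above 1 and all PlaB values below it. PlaB was 2.46-fold lower, in 4 of 4 experiments (exact two-sided permutation p = 0.0286, the smallest that 4 against 4 allows; adjusted 0.1 over the 7 tests, which did not pass 0.05). Against the median rate of the other miRNAs, in place of the pooled rate, the log2 difference was -0.49 (adjusted p = 0.35, exact permutation) in place of -1.30. Against the pooled rate, with the Control rate subtracted from both, it was -2.07. miR-21-5p supplied 34.8% of the pooled conversions of the other miRNAs in DMSO and 45.3% in PlaB, and with it left out of the pool, an alternative chosen after seeing the data, the difference was -1.04 (adjusted p = 0.2, exact permutation).

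Relative to miR-21-5p, the rate of miR-122-5p was 0.736, 0.908, 1.15 and 1.19 in DMSO and 0.242, 0.316, 0.315 and 0.347 in PlaB. The groups did not overlap, and PlaB was 3.24-fold lower, in 4 of 4 experiments (exact permutation p = 0.0286, adjusted 0.1). The direction was known beforehand from the study's report on these data, so the p-value is no independent support. The log2 difference was -1.69, and -2.54 with the Control rate subtracted. Relative to miR-17-5p it was 1.92, 1.32, 2.28 and 1.42 in DMSO and 0.895, 2.09, 1.19 and 0.831 in PlaB. These overlapped, with a log2 difference of -0.54 and within-experiment differences from -1.11 to 0.66 (lower in 3 of 4 experiments; exact permutation p = 0.143, adjusted 0.25). The rate of miR-122-3p relative to the pooled miRNAs had a log2 difference of -1.69 with within-experiment differences from -3.41 to 0.18 (exact permutation p = 0.0571, adjusted 0.133).

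**Figure D2:**
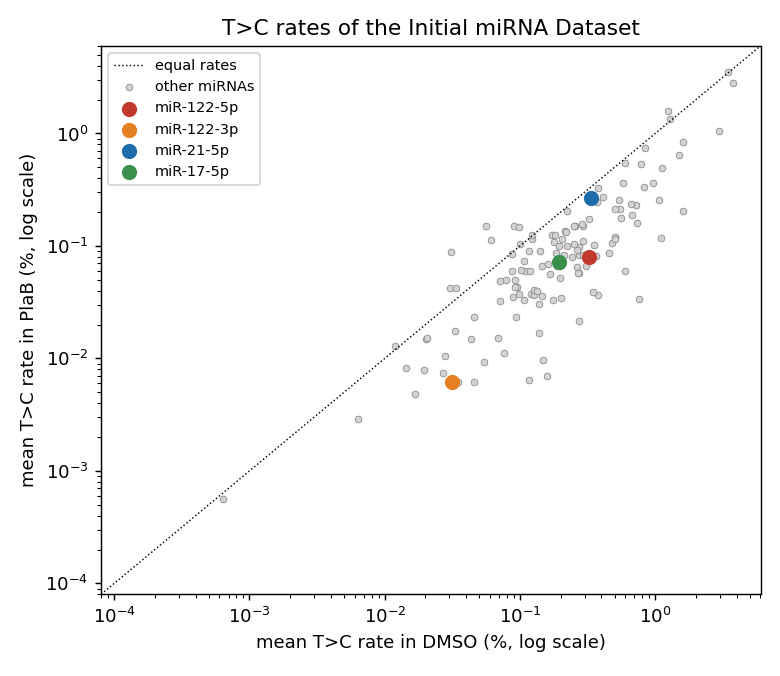
Mean T>C rate in PlaB (y axis) against DMSO (x axis), both in percent on log scales, for 136 miRNAs of the Initial miRNA Dataset (7 with a mean of 0 in either condition are left out); the dotted line marks equal rates. Of the 136, 123 lie below the line; miR-122-5p is at 0.323% and 0.0798%, close in DMSO to miR-21-5p at 0.332%, which is at 0.266% in PlaB.

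By its DMSO rate, miR-122-5p ranked at 42 of 143, between miR-423-5p (0.324%) and miR-96-5p (0.308%), and in PlaB at 69, between miR-503-5p (0.0822%) and miR-222-3p (0.0794%). Rates in DMSO ran from 0 for 4 miRNAs to 3.78% for miR-181a-2-3p. miR-122-3p ranked at 125 in DMSO, between miR-196a-5p (0.0333%) and miR-450a-5p (0.0308%), and at 131 in PlaB. These ranks describe measured rates and are not an order of synthesis. Over the 12 libraries the miRNAs whose log2 rate was most like that of miR-122-5p were miR-92a-3p (Pearson 0.976), miR-30d-5p (0.973) and miR-1269a (0.966), with its own 3p strand at 0.907. Those most like miR-122-3p were miR-503-5p (0.941), miR-194-5p (0.935) and miR-99a-5p (0.930). These correlations follow the 3 conditions, which all miRNAs share.

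Among the liver-enriched miRNAs, miR-122-5p had the lowest subtracted ratio. Of the 10 listed strands, miR-122 included, 7 were in the Initial miRNA Dataset, and the rate of 6 of these, both miR-122 strands included, fell from DMSO to PlaB in edgeR's test, beside 48.3% of the 143. Without miR-122 it was 4 of 5. The 7 had a median log2 fold change of -1.76 beside -1.23 for all 143. All 7 were among the 112 labelled miRNAs above, whereas the 143 include unlabelled ones. Neither the shares nor the medians are therefore directly comparable. miR-885-5p fell by 2.00 (SE 0.408, adjusted p = 8.23e-05, edgeR), miR-192-5p by 1.76 (adjusted p = 2.59e-07) and miR-194-5p by 1.59 (adjusted p = 9.27e-08) on the log2 scale. miR-148a-3p fell by 0.68 (adjusted p = 0.00865, edgeR), and its other strand miR-148a-5p, at 1.29% in DMSO and 1.35% in PlaB, was the 1 that did not pass (0.07, adjusted p = 0.944). Subtracted ratios were 0.176 for miR-885-5p, 0.187 for miR-192-5p, 0.246 for miR-194-5p and 0.571 for miR-148a-3p, all above the 0.135 of miR-122-5p. miR-192-3p, miR-194-3p and miR-215-5p were below 100 CPM in at least 1 library and were not tested.

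Locations were taken from the study's final set, which it had filtered for labelling above Control and for a PlaB rate not below Control. Of that set, 15 miRNAs are placed in exons of long non-coding RNAs, both strands of miR-122 included. Of these, 11 of 15 fell from DMSO to PlaB in edgeR's test, or 9 of 13 without miR-122, beside 48.3% of the 143, of which 0 were called higher. All 15 were among the 112 labelled miRNAs above, whereas the 143 include unlabelled ones, so these shares are not directly comparable. The study found no significant difference between exonic and intronic miRNAs, or between long non-coding and protein-coding hosts. The 15 had a median log2 fold change of -1.44 and a median subtracted ratio of 0.280, beside 0.331 for the 112 miRNAs above. miR-19a-3p of MIR17HG had the lowest ratio at 0.0535, followed by miR-122-5p, miR-192-5p of MIR194-2HG and miR-122-3p. miR-20a-5p (0.225), miR-92a-3p (0.263) and miR-19b-3p (0.280) of the MIR17HG transcript were next with miR-17-5p. For miR-92a-3p and miR-19b-3p the study also lists another host, so their rates cannot be assigned to MIR17HG alone. The highest were the strands of lower level of MIR22HG and MIR503HG, miR-22-5p (0.908) and miR-424-3p (0.874), neither of which passed.

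The opposite strand of the locus carries MIR3591 (chr18:58451080-58451152), and the 2 strands of a hairpin named miR-122b were counted separately in the tables. miR-122b-5p had between 9.85 and 38.1 CPM and 1 conversion in each of DMSO and PlaB over the 4 libraries. miR-122b-3p had between 0.837 and 8.54 CPM and no conversion, and in PlaB a mean of 85.3% of its few reads mapped to more than 1 place. Reads mapping to more than 1 place made up at most 0.252% of the reads of miR-122-5p and at most 0.209% of those of miR-122-3p.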

How the data were processed

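Small RNA libraries were made from alkylated total RNA of Huh7 cells. The authors trimmed reads with Trim Galore (4 bases from 3' ends, reads over 30 bases discarded) and ran nf-core SLAMseq 1.0.0 on GRCh38 with mature miRNAs of miRBase 22 in place of 3' UTRs, a further 4 bases trimmed from 5' ends at mapping, multimapping reads kept, a mapping integrity of 0.95 and positions with an alternate allele fraction of 0.4 masked. The integrity filter limits mismatches in short reads, so reads with several conversions may be undercounted. The deposited tables hold read counts, T>C read counts, conversions and covered T as counts, the deposited CPM and the deposited conversion rate as a fraction; both were recomputed and equal conversions over covered T and reads over the library sum. Tables of all 12 libraries differ from each other.

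Reads were tested with edgeR 4.0.16 (TMM, quasi-likelihood) and conversions with the log of covered T as offset, on all 12 libraries and the 143 miRNAs over 100 CPM in every library and marked by the authors as in MirGeneDB 2.1, at an adjusted p of 0.05. Ratios within libraries were tested by exact two-sided permutation, adjusted over 7 tests. Alternatives included DESeq2 1.42.0. The scripts were tested on simulated data. Named miRNAs are the strands, the 2 comparators, miR-122b, the 3 most alike by correlation, list neighbours and ends, liver-enriched and exonic miRNAs. Strands and lists were chosen with earlier results of these data known.

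Replicate numbers mark independent experiments. Deviations of log2 CPM from condition means correlated between all same-numbered libraries (lowest 0.274, medians 0.559 to 0.575), so the numbers pair the reads, while those of log2 rates did not (medians -0.018 to 0.129). The fits and permutation tests have no block, and blocked fits and sign flips within experiments were alternatives. Sequences and coordinates are RefSeq on GRCh38.p14 and GENCODE 44, and 2363 of 2652 names matched.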

Additional observations from a re-analysis of the deposited data

Results flagged for a closer look

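Of 47 sets of 4 libraries examined for a library far from the other 3, 2 had one, and chance gives about 1 in 20. The level of miR-122-3p in DMSO library 4, 4305 CPM, lay below the other 3, which were between 5561 and 5777 CPM. The log2 rate of miR-122-5p relative to the other miRNAs in PlaB library 4, -0.82, lay above the other 3, which were between -1.04 and -1.02, and remained below all DMSO libraries.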

How the results depend on the processing

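All values are log2 differences unless named. The T>C rate calls of miR-122-5p held in every alternative, with ranges of 2.86 to 3.02, -2.07 to -1.95 and 0.85 to 1.00 over single libraries left out. For miR-122-3p these ranges were 6.70 to 7.10, -2.94 to -1.90 and 4.07 to 5.12; the first and last depend on the prior count, as Control was at 0. Its PlaB against DMSO call was also lost with no filter (-2.29, adjusted p = 0.0747, edgeR) and without DMSO 1 and 2 (-2.39), and it was not tested with filterByExpr, which it did not pass. Over the 19 alternatives the lowest adjusted p of this call was 0.0102 and the highest 0.135. For reads, single libraries left out gave -0.15 to 0.071 for miR-122-5p in PlaB against DMSO and -0.069 to 0.24 for miR-122-3p in PlaB against Control. The rate ratio of the strands ranged from -0.27 to 0.78, and -0.48 with the Control rate subtracted. The subtracted ratio of miR-122-5p was 0.127 to 0.143 with single libraries left out, 0.247 without subtraction and, by a readout chosen after seeing the data, 0.129 from conversions beyond the first.

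Calls on reads were 6 for DMSO against Control, and 10 with DESeq2, 32 with filterByExpr, 43 with no filter, 0 over 1000 CPM, 24 with the replicate block and 3 without DMSO 1 and 2. For PlaB against DMSO the call was 1 (4 at unadjusted p under 0.05), with 2, 5 and 0 in the same filters, 0 with 8 libraries alone and without DMSO 1 and 2, and 0 to 1 with single libraries left out. For PlaB against Control there were 5, with 36, 48 and 0 in these filters and 8 with the replicate block. Calls on rates were 119, 69 and 78. No filter gave 192 and 122 for the comparisons with Control. Over 1000 CPM, where 60 miRNAs were tested, there were 56, 40 and 48, and PlaB against DMSO had 44 without DMSO 1 and 2. With the replicate block miR-122-3p passed on reads for DMSO against Control (0.42), and no other call of the strands changed; on rates the block gave 115, 65 and 73 calls. Signs of the within-experiment differences were also flipped exactly, where the smallest p is 0.125. The number of conversions limits miR-122-3p, and the causes of these changes were not tested.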
